A study of Mus musculus with 36 samples.

Results

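The genes described here encode the machinery of oxidative phosphorylation in the inner mitochondrial membrane. They were chosen by symbol alone: every probe whose gene symbol starts with Nduf, with Sdh followed by a to d, with Uqcr, with Cox followed by 4 to 8, or with Atp5. On the array 111 of 25697 probes met this rule, for 89 of 16593 gene symbols, and 78 of these genes were among the 7585 genes tested. By complex, the 89 genes were 39 of complex I, 7 of complex II, 8 of complex III, 19 of complex IV and 16 of complex V. The rule takes nuclear genes only, and the subunits that the mitochondrial genome encodes were not analysed here.

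RNA came from mouse T cells of 3 genotypes, each unstimulated (0 h) and after 1 and 4 h of stimulation, on 36 Illumina bead arrays with 4 arrays in each of 9 groups. The genotypes are Malt1-/- (KO here), with no Malt1 allele, Malt1PM/- (PM), with the paracaspase mutation on the remaining allele, and Malt1+/- (het), with 1 working allele, so that the het cells used as control also carry a null allele. MALT1 is a scaffold and a protease (paracaspase) that links the antigen receptor to NF-kB. The strain label of all samples is B6.C-Tg(CMV-cre)1Cgn/J, a line whose Cre is driven by the broadly active CMV promoter. The labels describe total T cells, obtained by removing B220+ and CD11b+ cells, as well as CD4+ cells from selection kits, and stimulation with either PMA and ionomycin or plate-bound antibodies to CD3 and CD28. Which of these applies to an array is not said, and no age or sex of the mice is given. The design text counts 3 biological replicates while the labels number 4 per group, and nothing says that they are separate mice, so p-values measure the spread between these samples.

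Complexes I to IV pass electrons from NADH and succinate to oxygen, and of these complexes I, III and IV pump protons. Complex V, the ATP synthase, lets the protons flow back and makes ATP. Each complex is built from core subunits that carry the catalysis, accessory subunits that surround them, and assembly factors that leave once the complex is finished. Resting T cells make most of their ATP by oxidative phosphorylation, and activated T cells raise glycolysis and enlarge their mitochondria over the first day.

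Values are background-corrected and quantile-normalized signal intensities on a log2 scale, so that a difference of 1 is a doubling of signal, and levels of different probes are not set against each other. Changes are differences of group means over 4 and 4 arrays with the standard error (SE) of a limma fit across all 36 arrays, and the threshold was an adjusted p of 0.05, by the method of Benjamini and Hochberg over all genes. Between 7713 and 10291 probes were detected per array. The T cell markers Cd3d, Cd3e, Cd3g, Cd247, Cd2, Cd5, Cd28, Lat and Thy1 were measured in every group. Their mean log2 signal was 10.87 ± 0.25 in KO, 10.60 ± 0.25 in PM and 10.37 ± 0.34 in het cells at 4 h, against 11.13 ± 0.11, 10.96 ± 0.27 and 11.13 ± 0.13 at 0 h (SD, n = 4), and 3, 2 and 1 of the 9 rose while 4, 5 and 5 fell. Malt1 itself had a mean log2 signal of 4.79 ± 0.29, 4.66 ± 0.16 and 5.82 ± 0.32 at 0, 1 and 4 h in KO cells (SD, n = 4). The means were 5.21 ± 0.37, 5.61 ± 0.43 and 6.10 ± 0.33 in PM cells and 6.08 ± 0.35, 6.75 ± 0.40 and 7.29 ± 0.26 in het cells, and the place of its probe in the deleted or the remaining part was not known. Markers of B cells, myeloid cells and NK cells were measured too. The B cell list had a mean log2 signal per array of 4.72 to 5.96 in KO, 4.97 to 5.80 in PM and 5.02 to 5.92 in het cells at 4 h, against 6.15 to 7.34, 6.35 to 7.76 and 6.53 to 7.98 at 0 h. The myeloid list had 5.61 to 6.94 in KO, 5.32 to 6.67 in PM and 5.48 to 6.85 in het cells at 4 h, against 8.23 to 8.74, 7.40 to 8.37 and 8.24 to 8.54 at 0 h. The NK list, of 2 genes, had 6.32 to 7.09 in KO, 5.88 to 7.26 in PM and 5.89 to 6.82 in het cells at 4 h, against 7.61 to 8.04, 7.58 to 8.80 and 7.79 to 8.52 at 0 h. At 4 h 4 of 5 myeloid markers fell in each genotype, and 4, 3 and 3 of 5 B cell markers and 2, 1 and 1 of 2 NK markers fell in KO, PM and het cells. The part of these markers, T cell markers included, in the changes below was not tested. In whole samples fewer cells of a type and less RNA per cell cannot be told apart. The arrays of replicate 4 in PM cells at 0 and 1 h correlated at 0.943 and 0.954 with the mean of their group, against 0.966 or more for the other 34 arrays.

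The chain was split after 4 h of stimulation: a few genes more than doubled, a few fell to less than 0.5 times the signal, and most did not pass the test. In KO cells 19 of the 78 genes rose and 10 fell, in PM cells 14 rose and 20 fell, and in het cells 19 rose and 19 fell. Of all 7585 genes tested, 22.2% rose and 24% fell in KO cells, 24% rose and 27.1% fell in PM cells, and 26.9% rose and 28.3% fell in het cells, so the members' shares (24.4% and 12.8%, 17.9% and 25.6%, 24.4% and 24.4%) lay near or under those of all genes. The median change of the members was 0.08 in KO, -0.04 in PM and 0.01 in het cells, beside -0.01, -0.02 and -0.00 for all genes. Past the threshold in the same direction in all 3 genotypes were 13 risers (Ndufaf4, Ndufa12, Ndufa5, Ndufb6, Ndufb7, Sdhaf1, Uqcrc1, Cox5a, Atp5b, Atp5d, Atp5g1, Atp5g3 and Atp5o) and 10 fallers (Cox7a2l, Ndufv3, Ndufa6, Ndufa13, Ndufa2, Ndufa3, Sdhaf4, Uqcrh, Atp5c1 and Atp5h). How many of all genes passed in the same direction in all 3 genotypes was not counted, so these 2 numbers have no share beside them. In PM cells the rises of Ndufb7 and Uqcrc1 passed in 3 and 2 of 8 fits that each left out 1 array. With each array instead scaled to the median of the probes detected on all arrays, an alternative chosen after seeing the data, the counts were 21 up and 6 down in KO, 17 and 6 in PM and 23 and 10 in het cells, and all genes past the threshold kept their direction. With scaling to a common median of all probes they were 3 up and 1 down in KO, 5 and 1 in PM and 8 and 4 in het cells.

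**Figure D1:**
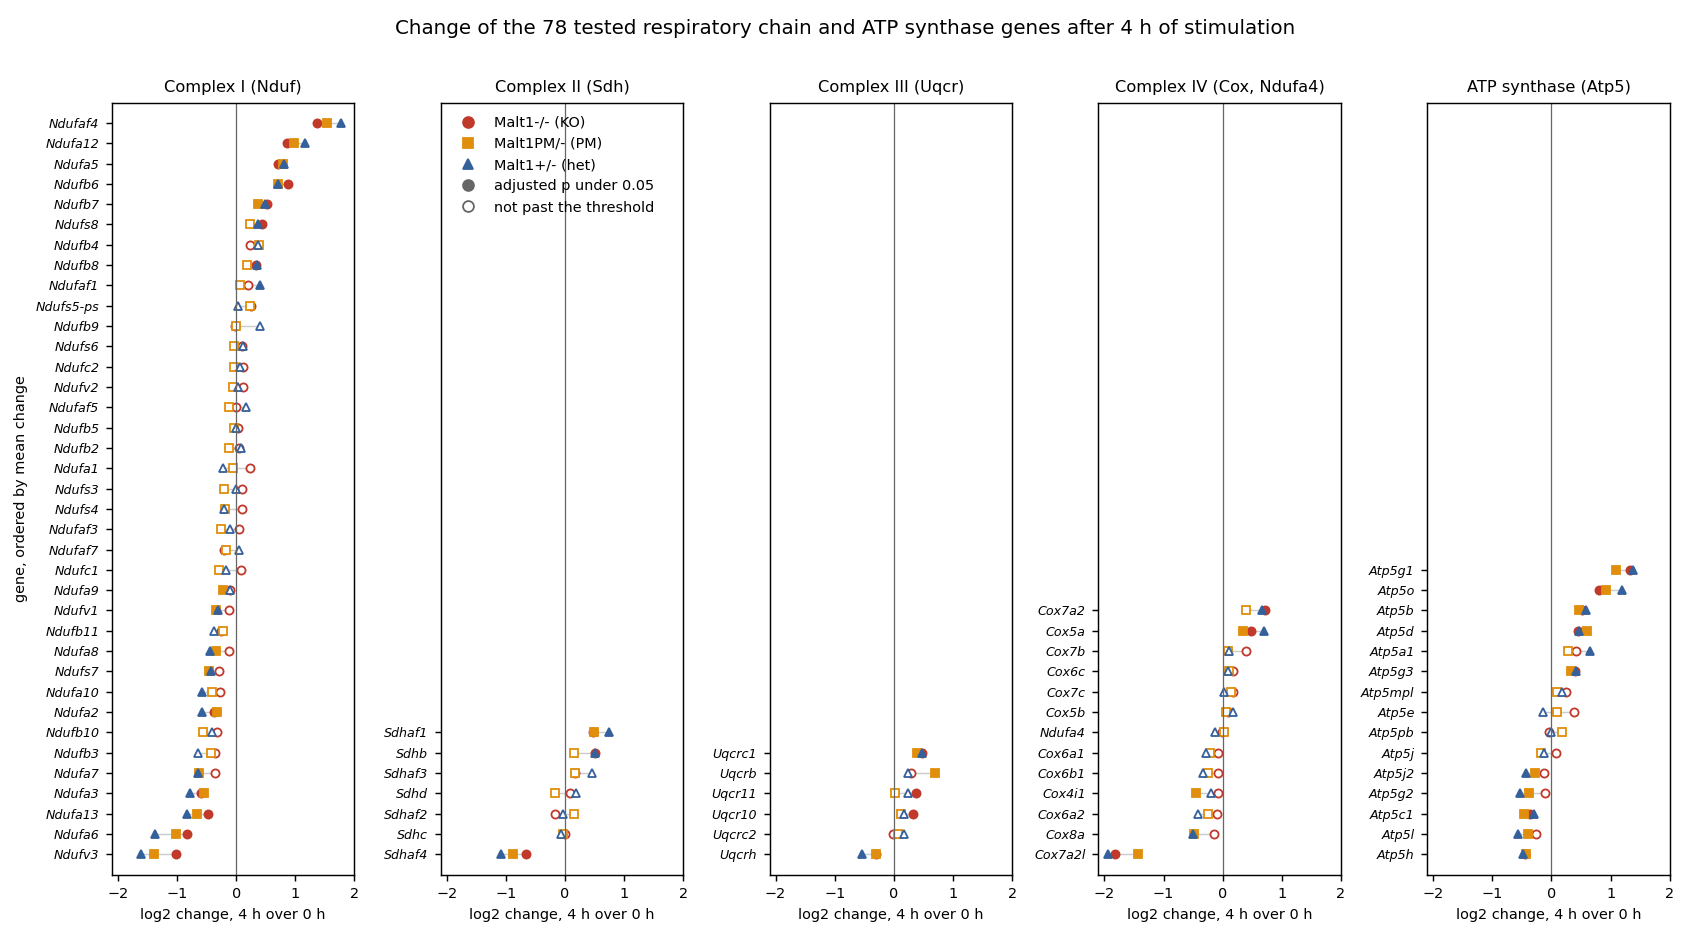
Change in log2 signal after 4 h of stimulation (x axis) for each of the 78 tested genes, in 5 panels by complex, with 1 symbol per genotype (KO circles, PM squares, het triangles), filled where the adjusted p was under 0.05. Ndufaf4 and Atp5g1 stand at the right end of their panels and Cox7a2l and Ndufv3 at the left end, with the 3 genotypes on the same side.

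Complex I, which oxidises NADH, held both strong risers and strong fallers at 4 h, with 7 of its 37 tested genes up and 5 down in KO cells, 5 up and 10 down in PM cells and 8 up and 10 down in het cells. Of all genes tested 22.2% rose and 24% fell in KO, 24% and 27.1% in PM, and 26.9% and 28.3% in het cells. Ndufaf4, an assembly factor of complex I, had the largest rise among all 78 members in each genotype. Its log2 signal was 9.66, 9.92, 9.42 and 9.59 in KO cells at 4 h, against 8.29, 8.74, 8.15 and 7.95 at 0 h. PM cells had 9.81, 10.01, 10.17 and 9.57 at 4 h, against 8.46, 8.41, 8.23 and 8.31 at 0 h, and het cells had 9.99, 10.43, 9.92 and 9.88 at 4 h, against 8.42, 8.59, 8.28 and 7.84 at 0 h. No array at 4 h overlapped an array at 0 h, and the changes were 1.36 in KO, 1.54 in PM and 1.77 in het cells, with an SE of 0.18. Adjusted p-values were 1.05e-07 (KO), 8.18e-09 (PM) and 2.88e-10 (het). At 1 h the gene had not moved past the threshold, with changes of -0.09 in KO, 0.08 in PM and 0.02 in het.

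The promoters of Ndufaf4, the strongest riser, and of Cox7a2l and Ndufv3, the strongest fallers, are shown to set the genes that moved most beside each other (RefSeq, build GRCm38.p6, 250 bases before the start to 50 after, read 5' to 3'). Capitals mark matches on either strand to GCGCANGCG (NRF1), CCGGAAG (ETS family, GABP among them), AAGATGGCG (YY1) or CACGTG (E-box, bound by MYC among others), which are factors known to bind promoters of mitochondrial genes.
Ndufaf4 (chr4:24897833-24898132, plus strand): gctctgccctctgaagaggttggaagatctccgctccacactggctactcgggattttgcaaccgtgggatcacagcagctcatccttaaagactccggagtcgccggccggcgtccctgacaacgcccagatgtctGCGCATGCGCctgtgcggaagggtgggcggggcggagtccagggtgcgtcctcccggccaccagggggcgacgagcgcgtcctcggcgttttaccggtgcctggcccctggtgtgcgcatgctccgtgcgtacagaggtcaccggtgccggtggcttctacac
Cox7a2l (chr17:83514284-83514583, minus strand): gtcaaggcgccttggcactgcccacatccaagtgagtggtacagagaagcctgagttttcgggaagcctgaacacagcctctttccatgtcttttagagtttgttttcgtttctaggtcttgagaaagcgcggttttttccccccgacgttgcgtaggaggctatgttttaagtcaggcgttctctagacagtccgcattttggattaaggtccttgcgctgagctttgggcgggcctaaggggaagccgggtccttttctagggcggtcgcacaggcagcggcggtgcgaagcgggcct
Ndufv3 (chr17:31519865-31520164, plus strand): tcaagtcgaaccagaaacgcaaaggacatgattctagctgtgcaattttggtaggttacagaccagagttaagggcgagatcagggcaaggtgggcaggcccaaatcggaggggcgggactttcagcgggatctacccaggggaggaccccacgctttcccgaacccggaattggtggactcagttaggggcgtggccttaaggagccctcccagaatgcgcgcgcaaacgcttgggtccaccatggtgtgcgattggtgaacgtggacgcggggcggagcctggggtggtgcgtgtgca
The capitals in Ndufaf4 are 2 overlapping NRF1 matches, 1 on each strand, that start 113 and 112 bases before the gene's start. In Cox7a2l and Ndufv3 none of the 4 motifs was found in this window, which says nothing about the factors themselves.

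Accessory subunits also rose. Ndufa12, which is added late in assembly, went through a dip: its signal in KO cells was 9.14, 9.03, 8.89 and 9.07 at 0 h, 8.20, 8.61, 8.45 and 8.58 at 1 h and 9.66, 9.91, 9.90 and 10.12 at 4 h, and the 3 times did not overlap in any genotype. The fall at 1 h was -0.57 in KO, -0.52 in PM and -0.66 in het cells. Adjusted p-values were 2.41e-04 (KO), 8.88e-04 (PM) and 3.69e-05 (het). At 4 h over 0 h the gene rose by 0.86 in KO, 0.98 in PM and 1.16 in het cells, with an SE of 0.11. Adjusted p-values were 1.63e-07 (KO), 1.07e-08 (PM) and 2.55e-10 (het). Ndufa5, a subunit of the arm that hands electrons to ubiquinone, changed by 0.70 in KO, 0.79 in PM and 0.81 in het cells at 4 h. Adjusted p-values were 2.54e-07 (KO), 1.99e-08 (PM) and 9.55e-09 (het). Its second, dim probe rose too, by 1.07, 0.82 and 0.64. Ndufb6, in the membrane arm, changed by 0.88 in KO, 0.70 in PM and 0.71 in het cells. Adjusted p-values were 6.85e-07 (KO), 1.93e-05 (PM) and 1.35e-05 (het). Its second probe rose by 0.63, 0.82 and 0.85. Smaller rises were those of Ndufb7 (0.53 in KO, 0.36 in PM and 0.48 in het) in all genotypes, and of Ndufb8 (0.33 and 0.36) and the iron-sulfur core subunit Ndufs8 (0.43 and 0.37) in KO and het cells. The Ndufb7 rise in PM cells passed in 3 of 8 fits that each left out 1 array. In PM cells Ndufb8 changed by 0.18 and Ndufs8 by 0.23, which did not pass.

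Ndufv3, an accessory subunit of the NADH-oxidising end of complex I, had the largest fall of the complex. Its signal was 9.60, 9.45, 9.65 and 9.86 in KO cells at 4 h, against 10.77, 10.49, 10.68 and 10.67 at 0 h. PM cells had 9.48, 9.26, 9.02 and 9.53 at 4 h, against 10.66, 10.60, 10.77 and 10.85 at 0 h, and het cells had 9.39, 8.73, 9.10 and 9.30 at 4 h, against 10.95, 10.61, 10.54 and 10.88 at 0 h. The groups did not overlap, and the changes were -1.01 in KO, -1.40 in PM and -1.62 in het cells, with an SE of 0.14. Adjusted p-values were 5.88e-07 (KO), 9.45e-10 (PM) and 2.88e-11 (het). A second probe of the gene changed by -0.89 in KO, -1.53 in PM and -1.56 in het cells, while a further one, detected on 7 of the 36 arrays, did not pass the test. Ndufa6, which binds the mitochondrial acyl carrier protein, had 10.26, 9.85, 9.59 and 9.98 in KO cells at 4 h, against 10.74, 11.07, 10.63 and 10.54 at 0 h, and changed by -0.83 in KO, -1.02 in PM and -1.37 in het cells. Adjusted p-values were 3.56e-04 (KO), 2.00e-05 (PM) and 1.23e-07 (het). Ndufa13, also called GRIM-19, changed by -0.48 in KO, -0.67 in PM and -0.84 in het cells, with an SE of 0.09. Adjusted p-values were 3.60e-05 (KO), 1.19e-07 (PM) and 1.00e-09 (het). Ndufa3 passed in each genotype as well, with -0.59 in KO, -0.55 in PM and -0.79 in het. Ndufa2 fell by less, with changes of -0.37 in KO, -0.32 in PM and -0.58 in het. Falls that passed in PM and het cells but not in KO cells were those of Ndufa7 (-0.36 in KO, -0.64 in PM and -0.64 in het), Ndufa8 (-0.12 in KO, -0.35 in PM and -0.44 in het) and the core subunits Ndufs7 (-0.28 in KO, -0.45 in PM and -0.43 in het) and Ndufv1 (-0.12 in KO, -0.35 in PM and -0.31 in het), the last of which binds NADH. The second, dimmer probe of Ndufa8 did not pass in PM (-0.31, adjusted p = 0.0799) or het cells (-0.26, adjusted p = 0.134). Ndufa10 passed in het cells alone (-0.27 in KO, -0.40 in PM and -0.58 in het). In KO against het at 4 h Ndufv1 had an adjusted p of 0.0639 and Ndufa8 of 0.193. With array weights both passed (adjusted p = 0.0414 and 0.0314), and Ndufv1 also passed without background correction (adjusted p = 0.0255) and with the replicate block (adjusted p = 0.0169). The direct limma test of whether the 4 h responses of KO and het cells differ did not pass for these genes. The differences were 0.28 for Ndufa7 (adjusted p = 0.739) and 0.32 for Ndufa8 (adjusted p = 0.515). For Ndufs7 it was 0.15 (adjusted p = 0.894), for Ndufv1 0.18 (adjusted p = 0.784) and for Ndufa10 0.31 (adjusted p = 0.760).

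Ndufaf1, Ndufaf5 and Ndufaf7, further assembly factors of complex I, were down at 1 h and not at 4 h. Ndufaf1, which holds a membrane-arm intermediate, had 7.28, 7.50, 6.90 and 7.201 at 0 h, 6.54, 6.03, 6.50 and 6.56 at 1 h and 7.83, 7.14, 7.34 and 7.38 at 4 h in KO cells. Its change at 1 h over 0 h was -0.81 in KO, -0.98 in PM and -0.68 in het cells. Adjusted p-values were 3.08e-04 (KO), 3.53e-05 (PM) and 0.00209 (het). At 4 h over 1 h it was 1.02 in KO, 1.05 in PM and 1.07 in het. Arrays at 1 h overlapped neither those at 0 h nor those at 4 h, and at 4 h over 0 h the gene was up in het cells (0.39) and did not pass in KO (0.20) or PM cells (0.06). That het rise passed in 2 of 8 fits with 1 array left out. Ndufaf5, which modifies Ndufs7, fell at 1 h by 0.51 in KO, 0.53 in PM and 0.41 in het cells, and Ndufaf7, an arginine methyltransferase for the complex, fell by 0.48, 0.51 and 0.50. Ndufaf3, on a probe detected on 9 of the 36 arrays, passed in no comparison of times.

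Complex II, succinate dehydrogenase, was measured through 3 subunits (Sdhb, Sdhc and Sdhd) and 4 assembly factors. Sdhaf4, the factor that receives Sdha once its flavin is bound, fell early and stayed low. Its signal in KO cells was 8.26, 8.46, 8.43 and 8.12 at 0 h, 6.76, 7.54, 7.27 and 7.45 at 1 h and 7.78, 7.63, 7.54 and 7.68 at 4 h. The PM arrays had 8.21, 8.50, 8.05 and 8.29 at 0 h, 7.22, 7.65, 7.47 and 7.54 at 1 h and 7.26, 7.51, 7.15 and 7.58 at 4 h. All stimulated arrays lay below all unstimulated arrays of their genotype, also in het cells, where the changes were -1.13 at 1 h and -1.09 at 4 h. The changes at 1 h in KO and PM cells were -1.06 (adjusted p = 5.23e-06) and -0.79 (adjusted p = 3.76e-04), and those at 4 h -0.66 (adjusted p = 9.87e-04) and -0.89 (adjusted p = 2.17e-05). Sdhaf1, which helps place the iron-sulfur clusters of Sdhb, went the other way at 4 h, with changes of 0.48 in KO, 0.49 in PM and 0.74 in het cells. Adjusted p-values were 0.0137 (KO), 0.0107 (PM) and 2.11e-04 (het). Sdhb rose at 4 h in KO and het cells (0.50 and 0.51) on the brighter of its 2 probes, while the other probe did not pass (0.40 and 0.26). Sdhc and Sdhd, the membrane anchors, changed by -0.17 to 0.18 at 4 h and did not pass. The Sdhd probe was detected on 17 of the 36 arrays.

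In complex III, the cytochrome bc1 complex, 3 of 6 tested genes rose and 1 fell at 4 h in KO cells, 2 rose and 1 fell in PM cells, and 1 rose and 1 fell in het cells. The shares of all genes at 4 h were 22.2% to 26.9% up and 24% to 28.3% down. Uqcrc1, a large subunit on the matrix side, rose in all genotypes, by 0.48 in KO, 0.39 in PM and 0.47 in het cells. Adjusted p-values were 0.0158 (KO), 0.0439 (PM) and 0.0141 (het). The PM rise passed in 2 of 8 fits that each left out 1 array. Uqcrh, the hinge protein at the cytochrome c side, fell in all of them, by 0.30 in KO, 0.30 in PM and 0.54 in het cells. Uqcr11, a small subunit, had 9.65, 9.80, 9.74 and 10.02 at 0 h, 8.79, 9.19, 8.96 and 9.02 at 1 h and 9.91, 9.99, 10.001 and 10.30 at 4 h in het cells. Its fall at 1 h was -0.50 in KO, -0.48 in PM and -0.82 in het cells. Adjusted p-values were 0.0144 (KO), 0.0203 (PM) and 1.20e-04 (het). At 4 h it was above 0 h past the threshold in KO cells only, by 0.38, with 0.01 in PM and 0.24 in het cells. This KO rise passed in 3 of 8 fits with 1 array left out. Uqcrb, another small subunit, rose in PM cells by 0.70 and did not pass in KO (0.29) or het cells (0.23). With 1 array left out at a time, the PM rise of Uqcrb passed in 3 of 8 fits. Uqcr10 rose in KO cells by 0.32, but its second probe, of about the same brightness, did not pass there (0.13) and passed in het cells (0.34), so the 2 probes disagree on where it rose.

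Complex IV, cytochrome c oxidase, had 2, 1 and 2 of 13 tested genes up and 1, 3 and 2 down at 4 h in KO, PM and het cells. Among all genes 22.2%, 24% and 26.9% were up and 24%, 27.1% and 28.3% down. The gene with the largest fall among all members belongs to complex IV: Cox7a2l, which encodes a relative of subunit 7a that joins complexes III and IV into a supercomplex. Its signal was 10.21, 9.94, 9.54 and 9.03 in KO cells at 4 h, against 11.50, 11.75, 11.31 and 11.41 at 0 h. In het cells it was 9.62, 10.11, 9.61 and 8.95 at 4 h, against 11.67, 11.68, 11.35 and 11.31 at 0 h, with no overlap. PM cells had 9.99, 10.44, 9.36 and 8.98 at 4 h, against 11.68, 11.76, 11.61 and 9.47 at 0 h, where replicate 4 lay at the level of the stimulated arrays and made the groups overlap. Replicate 4 was also the lowest array at 1 h in each genotype, with 9.82 in KO, 9.03 in PM and 10.67 in het cells, against 11.02 or more on the other 9 arrays. The changes at 4 h were -1.81 in KO, -1.44 in PM and -1.93 in het cells, with an SE of 0.47. Adjusted p-values were 0.00178 (KO), 0.0105 (PM) and 6.98e-04 (het). Without replicate 4 of every group they were -1.63 (adjusted p = 2.83e-06), -1.75 (adjusted p = 6.81e-07) and -1.79 (adjusted p = 3.94e-07).

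Cox7a2, the ubiquitous subunit 7a itself, was dim and did the opposite, with changes of 0.72 in KO, 0.40 in PM and 0.66 in het cells at 4 h, so that PM cells missed the threshold. Adjusted p-values were 0.00966 (KO), 0.152 (PM) and 0.0138 (het). Cox7a1, the form of heart and muscle, was not above background. Cox5a, a subunit on the matrix side, had 10.87, 11.005, 11.08 and 11.11 in het cells at 4 h, against 10.14, 10.24, 10.45 and 10.44 at 0 h, and changed by 0.48 in KO, 0.35 in PM and 0.70 in het cells. Adjusted p-values were 9.10e-04 (KO), 0.0128 (PM) and 4.96e-06 (het). Cox8a, a small membrane subunit, fell in PM (-0.48) and het cells (-0.49) and Cox4i1 in PM cells (-0.46). Cox8a changed by -0.15 in KO cells and Cox4i1 by -0.07 in KO and -0.20 in het cells, short of the threshold. The remaining subunits Cox5b, Cox6a1, Cox6b1, Cox6c, Cox7b and Cox7c and the muscle form Cox6a2 did not pass at 4 h in any genotype, and neither did Ndufa4, which was first counted with complex I and is now placed in complex IV. The dimmer of the 2 probes of Cox6a1 did pass in het cells (-0.45, adjusted p = 0.0128). The probes of Cox7b and Cox6a2 were detected on 10 and 5 of the 36 arrays. The tissue-restricted forms Cox4i2, Cox6b2, Cox7b2, Cox8b and Cox8c were not above background on 4 or more arrays.

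**Figure D2:**
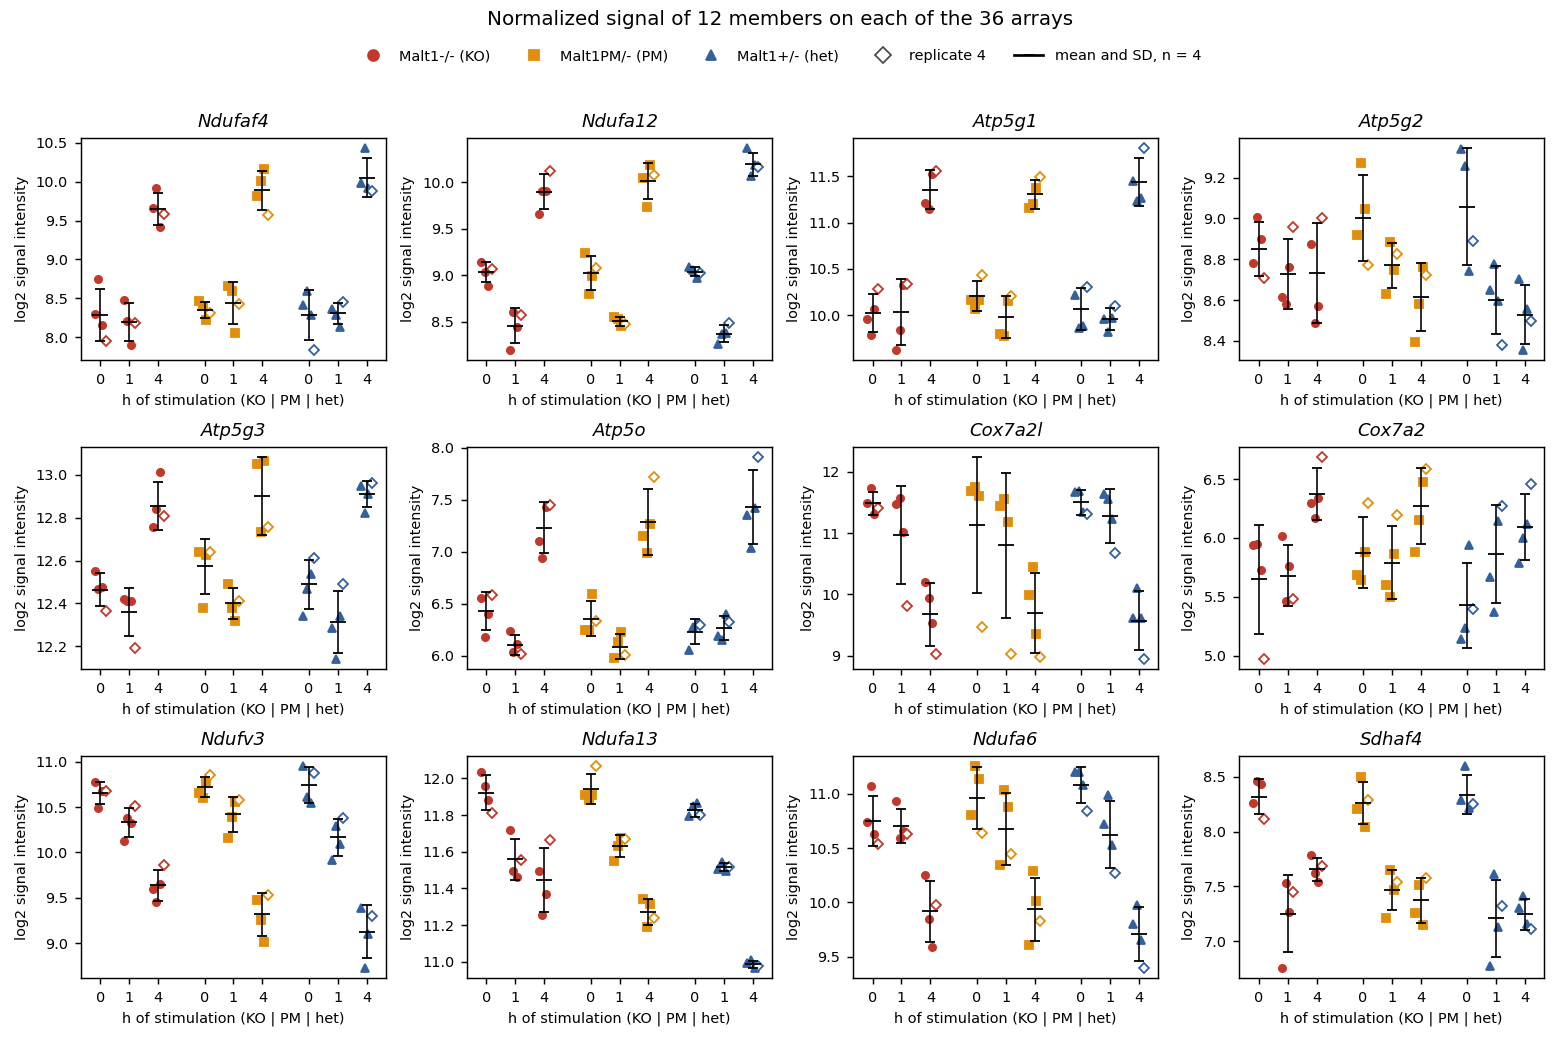
Log2 signal intensity (y axis) of 12 genes on all 36 arrays, by hours of stimulation within KO, PM and het cells (x axis), with each array as a symbol, replicate 4 as an open diamond and bars for the mean and SD of 4 arrays. Ndufa12 dips at 1 h and stands highest at 4 h in each genotype, and the low replicate 4 arrays of Cox7a2l at 0 and 1 h in PM cells lie beside the 4 h arrays.

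In the ATP synthase 5 of 15 tested genes rose and 2 fell at 4 h in KO cells, 5 rose and 5 fell in PM cells, and 6 rose and 5 fell in het cells. Beside them stand 22.2% to 26.9% of all genes up and 24% to 28.3% down. The clearest contrast lay among Atp5g1, Atp5g2 and Atp5g3, which encode precursors of the same mature c subunit, the proton-carrying ring of the enzyme, under different promoters. Atp5g1 had 11.21, 11.14, 11.52 and 11.56 in KO cells at 4 h, against 9.96, 9.79, 10.07 and 10.28 at 0 h, 11.16, 11.20, 11.38 and 11.49 in PM cells at 4 h, against 10.16, 10.07, 10.17 and 10.44 at 0 h, and 11.45, 11.23, 11.27 and 11.80 in het cells at 4 h, against 10.22, 9.86, 9.88 and 10.31 at 0 h. It rose in every genotype without overlap, by 1.33 in KO, 1.10 in PM and 1.37 in het cells, with an SE of 0.16, which is 2.52-, 2.14- and 2.59-fold. Adjusted p-values were 3.21e-08 (KO), 8.73e-07 (PM) and 1.06e-08 (het). Atp5g3 rose by less, with 12.76, 12.84, 13.01 and 12.81 in KO cells at 4 h, against 12.55, 12.47, 12.48 and 12.36 at 0 h, and changes of 0.39 in KO, 0.33 in PM and 0.42 in het cells. Adjusted p-values were 0.00202 (KO), 0.0074 (PM) and 6.90e-04 (het). Atp5g2 went down, with 8.70, 8.36, 8.56 and 8.50 in het cells at 4 h, against 9.34, 9.26, 8.74 and 8.89 at 0 h, and 8.87, 8.49, 8.57 and 9.004 in KO cells at 4 h, against 8.78, 9.01, 8.90 and 8.71 at 0 h. Its changes were -0.12 in KO, -0.39 in PM and -0.53 in het cells, and the KO groups overlapped. Adjusted p-values were 0.541 (KO), 0.0214 (PM) and 0.00179 (het). Each of the 3 genes was measured by 1 probe, and whether those probes also catch the relatives was not tested.

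The promoters of the c subunit genes are shown because the same protein is made from genes that moved in different directions. Capitals mark the same motifs as above.
Atp5g1 (chr11:96075582-96075881, minus strand): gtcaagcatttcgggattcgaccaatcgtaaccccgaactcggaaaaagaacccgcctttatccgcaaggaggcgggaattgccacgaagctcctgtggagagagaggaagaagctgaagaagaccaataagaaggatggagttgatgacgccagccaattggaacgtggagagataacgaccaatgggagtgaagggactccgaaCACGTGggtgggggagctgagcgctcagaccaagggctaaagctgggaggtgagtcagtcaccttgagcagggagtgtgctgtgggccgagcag
Atp5g2 (chr15:102670998-102671297, minus strand): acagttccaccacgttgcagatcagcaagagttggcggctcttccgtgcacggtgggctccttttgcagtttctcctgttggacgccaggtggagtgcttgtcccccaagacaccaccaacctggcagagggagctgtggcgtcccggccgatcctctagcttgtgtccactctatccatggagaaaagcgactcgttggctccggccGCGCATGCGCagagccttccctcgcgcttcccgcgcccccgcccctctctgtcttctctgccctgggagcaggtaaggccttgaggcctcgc
Atp5g3 (chr2:73911277-73911576, minus strand): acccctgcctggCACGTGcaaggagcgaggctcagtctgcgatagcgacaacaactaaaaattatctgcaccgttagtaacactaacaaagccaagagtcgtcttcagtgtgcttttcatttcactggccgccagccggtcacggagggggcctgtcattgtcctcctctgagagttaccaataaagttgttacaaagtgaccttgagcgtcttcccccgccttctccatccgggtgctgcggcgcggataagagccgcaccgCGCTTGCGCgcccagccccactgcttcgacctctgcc
Positions count from the start that sets each window. For Atp5g1 and Atp5g3 that start lies inside the annotated gene, which on the minus strand begins at 96075694 and 73912464. The whole Atp5g3 window lies within the gene, so it does not cover the sequence before the gene's outermost start. Atp5g1 holds a CACGTG starting 44 bases before the start of its window's count, also within the annotated gene, and no other match. Atp5g2 holds 2 overlapping NRF1 matches, 1 per strand, 42 and 41 bases before the start. Atp5g3 holds a CACGTG at position -238 from the start and an NRF1 match at position 13. Promoters were found for 74 of the 89 member genes, 79 promoters in all. Of these 27.8% hold GCGCANGCG, 25.3% CCGGAAG, 8.86% AAGATGGCG and 8.86% CACGTG, beside 6.25%, 8.86%, 1.4% and 7.15% of all 32851 promoters in the same table. Among the 13 genes up at 4 h in all genotypes 6 of 15 promoters hold GCGCANGCG and 2 hold CACGTG, and among 9 of the 10 genes down in all genotypes that have a promoter 4 of 10 hold GCGCANGCG and 0 hold CACGTG.

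Of the other ATP synthase genes, Atp5o, the stalk protein that ties the catalytic head to the membrane part, had 7.11, 6.94, 7.43 and 7.45 in KO cells at 4 h, against 6.55, 6.18, 6.40 and 6.58 at 0 h, and changed by 0.80 in KO, 0.93 in PM and 1.20 in het cells. Adjusted p-values were 6.31e-05 (KO), 6.33e-06 (PM) and 5.88e-08 (het). Within the catalytic head the beta subunit Atp5b rose by 0.52 in KO, 0.47 in PM and 0.59 in het cells. Adjusted p-values were 6.07e-04 (KO), 0.0015 (PM) and 1.02e-04 (het). The delta subunit Atp5d rose by 0.45 in KO, 0.60 in PM and 0.46 in het cells. Adjusted p-values were 0.0179 (KO), 0.0016 (PM) and 0.0118 (het). The gamma subunit Atp5c1, the central shaft, fell by 0.37 in KO, 0.47 in PM and 0.30 in het cells, so that subunits of the same head moved in both directions. The alpha subunit Atp5a1, on a dim probe, passed in het cells alone, with 0.41 in KO, 0.28 in PM and 0.65 in het. Its het rise passed in 3 of 8 fits with 1 array left out. Atp5h, a subunit of the outer stalk, fell in all genotypes (-0.44 in KO, -0.44 in PM and -0.49 in het). Atp5l and Atp5j2, small subunits of the membrane part, fell in PM and het cells, Atp5l by 0.40 and 0.56 and Atp5j2 by 0.28 and 0.43. In KO cells they changed by -0.26 and -0.12 and did not pass. With 1 array left out, the PM fall of Atp5j2 passed in 3 of 8 fits and the KO fall of Atp5h in 4 of 8.

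At 1 h the members moved almost wholly downward. In KO cells 0 rose and 19 fell, in PM cells 1 rose and 19 fell, and in het cells 0 rose and 28 fell, or 24.4%, 24.4% and 35.9% down. Of all genes tested 12.4% rose and 15.7% fell in KO, 10.3% rose and 13.1% fell in PM, and 12.7% rose and 15.5% fell in het cells. The riser in PM cells was Atp5d, by 0.44 (adjusted p = 0.0378). Falling in all 3 genotypes were 16 genes: Ndufa3, Ndufa7, Ndufa8, Ndufa9, Ndufa12, Ndufa13, Ndufc1, Ndufc2, Ndufs7, Ndufaf1, Ndufaf5, Ndufaf7, Sdhaf4, Uqcr11, Ndufa4 and Atp5j. Complex I made up most of them, with 13, 15 and 17 of its 37 genes down in KO, PM and het cells, while complex V had 1, 1 and 3 of 15 down. The number of all genes that fell in all 3 genotypes was not counted. With 1 array left out at a time, the falls of Ndufc1 in KO and of Ndufa4 in PM cells passed in 2 of 8 fits each. The fall of Atp5j did not pass in any genotype when all detected probes of the gene were averaged. Ndufc2, an accessory subunit of the membrane arm, had 9.32, 9.69, 9.63 and 9.45 in KO cells at 1 h, against 10.14, 10.41, 10.14 and 9.92 at 0 h, and fell by 0.63 in KO, 0.51 in PM and 0.74 in het cells. The median change of the members was -0.22, -0.24 and -0.27, beside -0.07, -0.08 and -0.07 for all genes. Markers of other cells were lower at 1 h as well. The myeloid list averaged 7.37 ± 0.67 in KO, 7.08 ± 0.57 in PM and 7.59 ± 0.44 in het cells at 1 h, against 8.39 ± 0.24, 7.80 ± 0.41 and 8.45 ± 0.14 at 0 h (SD, n = 4), with 2, 0 and 1 of 5 genes past the threshold. The NK list averaged 7.50 ± 0.41, 7.64 ± 0.64 and 7.75 ± 0.42 at 1 h, against 7.82 ± 0.17, 8.09 ± 0.54 and 8.21 ± 0.36 at 0 h, with 1 of 2 genes down in each genotype, and 0 of 5 B cell markers passed. The part of these cells in the members' falls was not tested.

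The counts of these early falls differed with how arrays were scaled, and so did the median of all genes. With arrays scaled to a common median of all probes the median of all genes at 1 h was -0.32 in KO, -0.32 in PM and -0.18 in het cells, and with the probes detected on all arrays it was 0.09, 0.06 and -0.01. The members' median minus that of all genes was -0.16, -0.16 and -0.20 in the main normalization and -0.13, -0.19 and -0.11 in both of these scalings. Each of these scalings shifts a whole array by a constant, so this difference is the same in both by construction and counts once. None of the genes past the threshold turned. The count of members down in KO, PM and het cells was 3, 2 and 1 with scaling to the common median of all probes and 8, 8 and 12 with scaling to the probes detected on all arrays. It was 12, 6 and 17 when only the arrays of the groups compared were fitted. With the replicate numbers as a block the count in KO cells was 30 down and 0 up.

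Between 1 and 4 h the direction turned. In KO cells 38 of 78 genes rose and 4 fell, in PM cells 25 rose and 7 fell, and in het cells 32 rose and 7 fell, with medians of 0.27, 0.20 and 0.25 beside -0.01, -0.02 and -0.02 for all genes. Among all genes 22.4% rose and 22.1% fell in KO, 23.6% rose and 24.2% fell in PM, and 25.7% rose and 27% fell in het cells. Scaled to the common median of all probes the member counts were 12 up and 0 down in KO, 14 and 1 in PM and 14 and 1 in het cells, and scaled to the probes detected on all arrays they were 21 and 4, 21 and 4, and 31 and 6. With only the arrays of the groups compared, the counts in PM cells were 16 up and 5 down. These comparisons share the 1 h arrays with those above, so a low array at 1 h enters both. In all 3 genotypes 23 genes rose, among them Ndufa12 (1.44 in KO, 1.504 in PM and 1.82 in het), Atp5o (1.13 in KO, 1.20 in PM and 1.16 in het), Sdhaf1 (0.93 in KO, 0.90 in PM and 1.245 in het) and Sdhaf3 (0.60 in KO, 0.58 in PM and 0.90 in het). The 4 that fell in all of them were Cox7a2l, Ndufa6, Ndufv3 and Uqcrh. For all genes the number moving in the same direction in all 3 genotypes was not counted. Ndufc2 and Ndufa4, down at 1 h in all genotypes, did not pass at 4 h over 0 h, with Ndufc2 changes of 0.11 in KO, -0.03 in PM and 0.06 in het, and Ndufa4 changes of -0.01 in KO, 0.02 in PM and -0.13 in het.

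**Figure D3:**
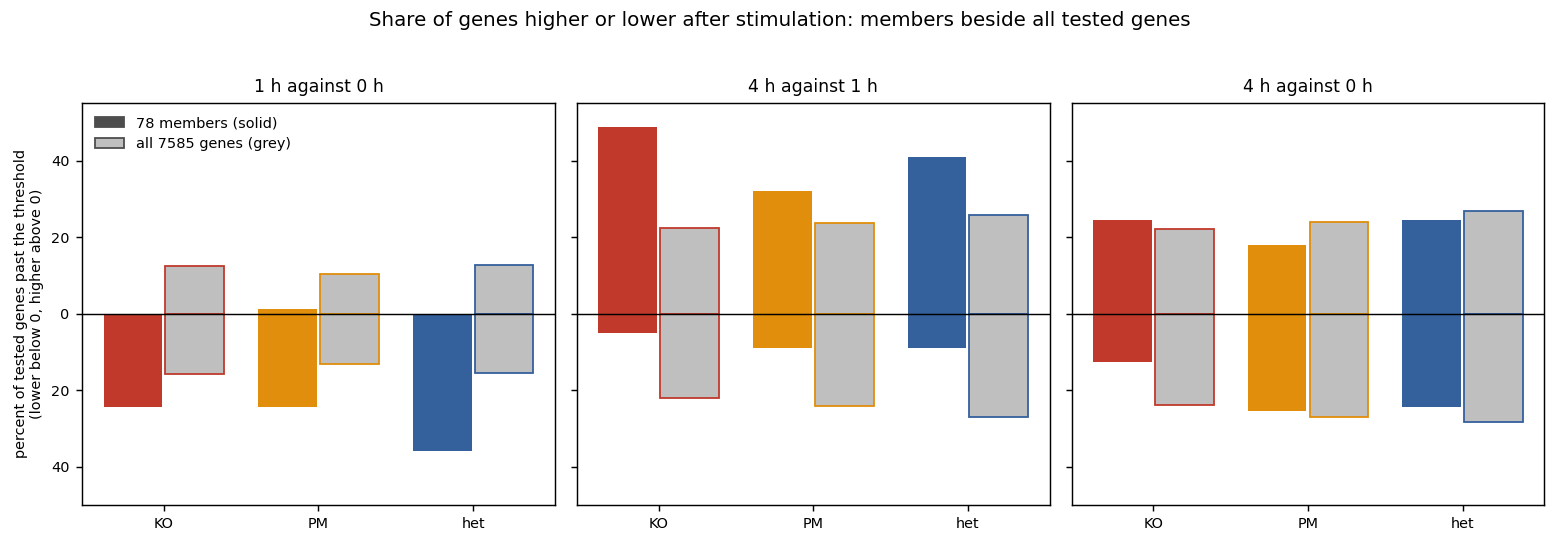
Percent of genes past the threshold, higher above 0 and lower below 0 (y axis), for the 78 members (solid) and all 7585 tested genes (grey) in KO, PM and het cells (x axis), for each pair of times. At 1 h the solid bars lie almost wholly below 0, from 1 to 4 h mostly above it, and at 4 h over 0 h they are near the grey bars or shorter.

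Differences between genotypes were few. Without stimulation and at 1 h no member differed, with 0 of 78 past the threshold in each of the 6 limma comparisons, and 0, 1 or 2 members at an unadjusted p under 0.05. Of all genes 0.0527% (KO against het), 0.0791% (PM against het) and 0.0659% (PM against KO) passed at 0 h, and 0.0527%, 0.211% and 0.0132% at 1 h. In every alternative run, the count in these 6 comparisons was also 0. At 4 h 2 members were higher in KO than in het cells, 2.56% of the members beside 8.74% of all genes. Ndufa13 had 11.49, 11.26, 11.37 and 11.66 in KO cells, against 10.99, 11.01, 10.97 and 10.98 in het cells. The difference was 0.46 with an SE of 0.09 (1.37-fold, adjusted p = 6.55e-04), and all 4 KO arrays lay above all 4 het arrays. In PM cells Ndufa13 had 11.34, 11.19, 11.31 and 11.24, also above every het array, with a difference from het of 0.28 that did not pass (adjusted p = 0.0832).

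Ndufv3 had 9.60, 9.45, 9.65 and 9.86 in KO cells at 4 h, against 9.39, 8.73, 9.10 and 9.30 in het cells, without overlap. The difference was 0.51 with an SE of 0.14 (1.43-fold, adjusted p = 0.0195), and it was 0.64 on the second probe (adjusted p = 0.0144). Leaving out 1 array at a time kept Ndufa13 past the threshold (0.39 to 0.52), whereas Ndufv3 did not pass without replicate 2 of het (0.38, adjusted p = 0.103), replicate 3 of het (0.50, adjusted p = 0.0547) or replicate 4 of KO cells (0.44, adjusted p = 0.0811). Without replicate 4 of every group Ndufa13 passed (0.38, adjusted p = 0.0265) and Ndufv3 did not (0.49, adjusted p = 0.0743). Both calls were lost when arrays were scaled to a common median of all probes (Ndufa13 0.30 and Ndufv3 0.38, adjusted p = 0.9997 for each). They were also lost with scaling to the probes detected on all arrays (Ndufa13 0.39, adjusted p = 0.0764, and Ndufv3 0.47, adjusted p = 0.0922). The same held when only the KO and het arrays at 4 h were fitted (adjusted p = 0.0672 and 0.123). Both genes fell with stimulation in every genotype, and the smaller falls in KO cells, -0.48 and -1.01, stand beside -0.84 and -1.62 in het cells. The difference of the responses did not pass for either, with 0.36 for Ndufa13 (adjusted p = 0.151) and 0.60 for Ndufv3 (adjusted p = 0.142).

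At 4 h the T cell markers also differed by genotype: 5 of 9 were higher and 1 lower in KO than in het cells, and their mean log2 signal was 10.87 ± 0.25 in KO and 10.37 ± 0.34 in het cells (SD, n = 4). Of the 2 NK markers 1 was also higher in KO cells. The part of these markers in the 2 calls was not tested. With the replicate numbers as a block 8 members passed in KO against het at 4 h, the 2 above and, higher in KO, Cox8a (0.41, adjusted p = 0.00423), Atp5j2 (0.31, adjusted p = 0.0160), Ndufv1 (0.32, adjusted p = 0.0169), Sdhaf4 (0.41, adjusted p = 0.0272) and Ndufb10 (0.59, adjusted p = 0.0384), and, lower in KO, Ndufaf4 (-0.41, adjusted p = 0.0497). Those 6 genes were selected by this fit and had adjusted p between 0.0639 and 0.169 without the block. The block also brought the Ndufv3 difference of responses past the threshold (adjusted p = 0.0466).

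PM against het and PM against KO at 4 h gave 0 of 78 members, beside 2.83% and 2.81% of all genes, with 1 and 2 members at an unadjusted p under 0.05. Between PM and KO cells the smallest p-values at 4 h were those of Ndufv1, which was lower in PM by 0.28 (adjusted p = 0.239), and Ndufv3, lower by 0.32 (adjusted p = 0.371). For the differences of 4 h responses 0 members passed in each of KO against het, PM against het and PM against KO, with 4, 1 and 0 at an unadjusted p under 0.05, beside 1.99%, 0.132% and 0.369% of all genes. A difference that misses the threshold does not show that genotypes act alike: the SE of a single member's difference between genotypes at 4 h was 0.09 for Ndufa13 and 0.47 for Cox7a2l.

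**Figure D4:**
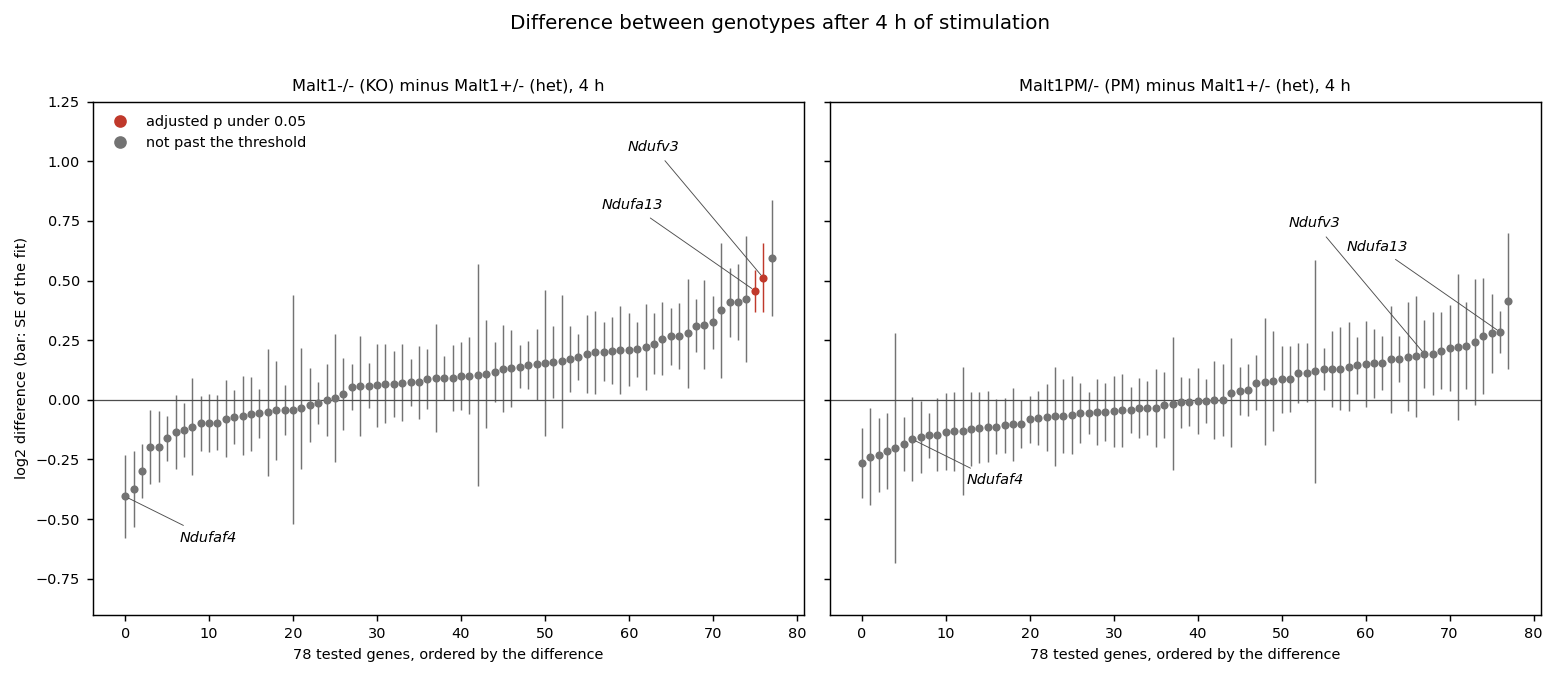
Log2 difference at 4 h (y axis, bars for the SE of the fit) for the 78 tested genes in order of the difference (x axis), KO minus het on the left and PM minus het on the right, coloured where the adjusted p was under 0.05. Ndufa13 and Ndufv3 are the coloured points of the left panel, and the right panel has none.

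Genes outside the members that build or feed the chain were read from fixed lists, chosen with earlier results of these data known. At 4 h 14 of 18 measured genes of mitochondrial protein import and its chaperones rose in KO, 15 in PM and 14 in het cells. In each genotype 0 of the 18 fell, and the median changes were 0.87, 0.96 and 1.17. Of all genes 22.2%, 24% and 26.9% rose and 24%, 27.1% and 28.3% fell at 4 h in KO, PM and het cells. Timm10, a chaperone of the space between the membranes, changed by 1.75 in KO, 1.93 in PM and 2.14 in het, Timm8a1 by 1.49 in KO, 1.49 in PM and 1.97 in het, and the matrix chaperonin Hspd1 by 1.41 in KO, 1.70 in PM and 2.03 in het. Among 14 electron carriers and enzymes of coenzyme Q synthesis 6, 6 and 8 rose and 1, 2 and 2 fell. Coq10b, a coenzyme Q binding protein, changed by 1.58 in KO, 2.05 in PM and 1.30 in het, Coq4, needed for coenzyme Q synthesis, by 0.80 in KO, 1.38 in PM and 1.09 in het, and cytochrome c (Cycs) by 0.63 in KO, 0.60 in PM and 0.65 in het. Cyc1, the cytochrome c1 subunit of complex III that the symbol rule does not take, changed by 0.43 in KO, 0.40 in PM and 0.67 in het. The falls past the threshold there were those of Coq9 in KO (-0.60) and het cells (-0.58) and of Etfb, an electron transfer flavoprotein, in PM (-0.73) and het cells (-0.67), and of Etfa in PM cells (-0.40).

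Of all genes, as given above, 22.2% to 26.9% rose and 24% to 28.3% fell at 4 h over 0 h, and the counts for assembly factors outside the members are given beside these shares. For complexes III and IV, 5 of 20 rose and 4 fell in KO, 5 and 6 in PM and 7 and 7 in het cells. Ttc19, a factor of complex III, changed by 1.04 in KO, 1.16 in PM and 1.53 in het, Uqcc2 by 0.76 in KO, 0.78 in PM and 0.58 in het and Cox19 by 0.68 in KO, 0.57 in PM and 0.61 in het, while Cox20, a chaperone of subunit 2, changed by -1.04 in KO, -1.63 in PM and -1.70 in het and Surf1 by -0.88 in KO, -0.93 in PM and -0.90 in het. For complex I none of 7 rose and 2 fell in KO and PM cells, and 1 rose and 2 fell in het cells, the fallers being Tmem126b (-0.62 in KO, -1.06 in PM and -1.11 in het) and Dmac1 (-0.79 in KO, -0.84 in PM and -0.96 in het). For the ATP synthase Atpaf2, which chaperones the alpha subunit, rose (0.44 in KO, 0.57 in PM and 0.79 in het), and the inhibitor Atpif1 fell in PM and het cells (-0.07 in KO, -0.41 in PM and -0.41 in het).

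Of the 11 members not tested, Ndufs1, Uqcrfs1, Uqcrq, Ndufab1 and Atp5k belong to complexes that every cell with mitochondria uses. Their probes were detected on at most 1 array each, which tells of these probes and not of the genes. The probe named Ndufs5-ps carries the symbol of a pseudogene of Ndufs5, and its signal may come from near-identical copies. Among the 78 tested genes the median residual SD between arrays of a group was 0.207, beside 0.270 for all genes.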

How the data were processed

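RNA of 36 mouse T cell samples (9 groups of 4) was extracted with Trizol and RNeasy and amplified to biotin-labelled cRNA, per the labels' protocols, and hybridised to Illumina bead arrays. The deposited table holds for each probe and array a signal intensity, not normalized, and a detection p-value, exported with GenomeStudio 2011.1 per the submitters' processing notes. The number of arrays limits the precision. Intensities were background-corrected with the detection p-values and quantile-normalized (neqc of limma 3.58.1 in R 4.3.3, offset 16), which forces all arrays to the same distribution. Probes with a detection p under 0.01 on at least 4 arrays were kept, and the brightest probe stood for a symbol, which left 7585 genes. A limma model with 1 coefficient per group over all 36 arrays (27 residual degrees of freedom) gave 21 comparisons, each adjusted by Benjamini and Hochberg over all genes at 0.05.

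Members were named where they were among the 12 largest rises or falls past the threshold at 4 h over 0 h in a genotype, passed in a comparison of genotypes or had the 5 smallest p-values where none passed, or shared a subunit with another gene. Further names with falls or rises that passed, such as those at 1 h, and genes given for their second probe were chosen after their values were seen. The members and lists were chosen with earlier results of these data known. Same-numbered arrays deviated together with every correlation over 0.1 in 12 of 18 comparisons (median 0.439, from -0.0718 to 0.827), with the pairing read from the replicate numbers in the labels, so blocked values are given where they change a call or count. Alternatives covered scaling, background correction, filters, array weights, blocks (statmod 1.5.0), single arrays left out and the groups fitted. The fit was tested on simulated data for KO against het at 4 h alone. The simulated noise was independent between arrays, so it tells nothing of the shared deviations of same-numbered arrays. Promoters were matched by gene to RefSeq tables of build GRCm38.p6.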

Additional observations from a re-analysis of the deposited data

Results flagged for a closer look

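The 59 members named by rule were screened, in 9 groups of 4 arrays each, and the other 19 of the 78 tested members were not. In 36 of these 531 sets of 4 values, 1 array lay so far from the others that its gap to the nearest, over the whole range of the group, exceeded Dixon's critical value, where chance alone gives about 1 in 20, or 26.55. The values are log2 signal intensities, each with the nearest other array of its group. No explanation was tested.

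In KO cells at 0 h Atp5e had 5.90 in replicate 3, with the nearest other array at 5.29. Cox6a1 had 11.34 in replicate 2, with the nearest other array at 11.71. Cox6a2 had 4.33 in replicate 1, with the nearest other array at 4.497. Ndufb7 had 6.47 in replicate 3, with the nearest other array at 6.72. Sdhb had 7.56 in replicate 4, with the nearest other array at 8.03. In KO cells at 1 h Atp5g3 had 12.19 in replicate 4, with the nearest other array at 12.41. Atp5j had 11.40 in replicate 2, with the nearest other array at 11.36. Cox7c had 11.14 in replicate 1, with the nearest other array at 10.93. Ndufaf1 had 6.03 in replicate 2, with the nearest other array at 6.500. In KO cells at 4 h Cox5a had 11.06 in replicate 1, with the nearest other array at 10.89. Cox6c had 8.35 in replicate 3, with the nearest other array at 9.12. Ndufa2 had 10.43 in replicate 2, with the nearest other array at 10.67. Ndufb4 had 5.47 in replicate 4, with the nearest other array at 4.91. In PM cells at 0 h Atp5g3 had 12.38 in replicate 2, with the nearest other array at 12.63. Cox6a2 had 5.53 in replicate 4, with the nearest other array at 4.43. Cox7a2l had 9.47 in replicate 4, with the nearest other array at 11.61. Cox8a had 11.38 in replicate 4, with the nearest other array at 11.03. Ndufa13 had 12.07 in replicate 4, with the nearest other array at 11.91. Ndufaf7 had 5.69 in replicate 4, with the nearest other array at 6.13. Uqcrc1 had 9.91 in replicate 4, with the nearest other array at 9.51.

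In PM cells at 1 h Cox7a2l had 9.03 in replicate 4, with the nearest other array at 11.18. Cox7c had 11.05 in replicate 4, with the nearest other array at 10.91. Ndufb10 had 5.82 in replicate 4, with the nearest other array at 5.15. Ndufs4 had 10.25 in replicate 2, with the nearest other array at 9.93. In PM cells at 4 h Cox6a2 had 4.66 in replicate 4, with the nearest other array at 4.33. Ndufb10 had 4.34 in replicate 1, with the nearest other array at 5.01. Ndufs3 had 8.88 in replicate 1, with the nearest other array at 9.32. Uqcrh had 12.09 in replicate 4, with the nearest other array at 12.14. In het cells at 0 h Atp5j had 11.997 in replicate 4, with the nearest other array at 11.67. Atp5j2 had 12.01 in replicate 3, with the nearest other array at 12.16. Atp5o had 6.05 in replicate 1, with the nearest other array at 6.27. Ndufa3 had 11.19 in replicate 1, with the nearest other array at 10.996. Ndufs3 had 9.44 in replicate 2, with the nearest other array at 9.23. In het cells at 1 h Ndufa5 had 9.83 in replicate 2, with the nearest other array at 9.97. Ndufc1 had 10.06 in replicate 4, with the nearest other array at 9.85. Sdhaf2 had 6.80 in replicate 2, with the nearest other array at 6.91. Replicate 4 of PM cells at 0 and 1 h held 9 of the 36 values, and that array at 0 h correlated least of all 36 with its group mean (0.943).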

How the results depend on the processing

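Of 146 values of single members none changed direction under any alternative. All of these values were past the threshold in the main fit, so they could lose a call but not gain one. They kept their side of the threshold in 146 with the replicate block, 146 with the random block, 145 without background correction, 144 with array weights, 140 with the mean of a gene's probes, 136 without a filter, 125 without replicate 4 of every group, 104 with only the groups compared, 86 with scaling to probes detected on all arrays (chosen after seeing the data) and 26 with scaling to a common median. With scaling to a common median the members past the threshold were 4 (KO), 6 (PM) and 12 (het) at 4 h over 0 h, 3, 2 and 1 at 1 h over 0 h, 12, 15 and 15 at 4 h over 1 h, and 0 in KO against het at 4 h. With scaling to probes detected on all arrays they were 8, 9 and 12 at 1 h over 0 h, 25 at 4 h over 1 h in KO cells and 0 in KO against het at 4 h. With only the groups compared they were 12, 6 and 17 at 1 h over 0 h, 22 at 4 h over 0 h and 21 at 4 h over 1 h in PM cells, and 0 in KO against het at 4 h. The replicate block, with the pairing by number, gave 30 at 1 h over 0 h in KO cells, 8 in KO against het at 4 h and 1 for the difference of responses of KO and het, and changed no other count of members by over 1.5 times. The random block, of arrays that share genotype and number, gave 30 and, for the responses, 2. Those 2 were Ndufa13 (adjusted p = 0.0427) and Ndufv3 (adjusted p = 0.0369). Unlike the replicate block, the random block does not pair arrays across genotypes. In KO against het at 4 h array weights gave 8, no background correction 5 and the arrays without replicate 4 of every group 1, and leaving out single arrays gave 1 to 4. In PM against het at 4 h array weights, no background correction and no filter gave 1 each, Ndufa13, and without background correction 1 member, also Ndufa13, passed for the responses of KO and het. The causes of these shifts were not tested. The slide could not be fitted as a block, since the columns name no slide. Probes near background limit what can be said of dim genes such as Cox7a2, Cox6a2, Cox7b, Sdhd, Ndufaf3 and Atp5a1.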

Other observations

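Regulators and neighbours of the chain, from lists chosen with earlier results of these data known, were read at 4 h over 0 h, where 22.2% to 26.9% of all genes rose and 24% to 28.3% fell. Of 7 measured regulators of mitochondrial gene expression 3 rose in each genotype. Myc, a transcription factor of growth, changed by 1.91 in KO, 3.05 in PM and 3.30 in het cells, Gabpb1, the partner subunit of the ETS factor GABP, by 1.52, 1.93 and 1.66, and Gabpa, its DNA-binding subunit, by 0.59, 0.84 and 0.86. Of 15 genes of the citric acid cycle 4 rose in each genotype and 3, 5 and 4 fell in KO, PM and het cells, shares near those of all genes, and among the fallers was Idh2, the mitochondrial NADP-dependent isocitrate dehydrogenase, with -1.78, -2.03 and -1.40. Of 8 mitochondrial carriers 3, 3 and 5 rose and 1 fell in each genotype. Slc25a1, the citrate carrier, changed by 1.09, 1.19 and 1.28, and Slc25a11, the carrier of oxoglutarate and malate, by -1.03, -1.20 and -1.36.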
